A study of Homo sapiens with 54 samples.

Results

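The 10 genes described here are transcriptional outputs and brakes of the FGF to ERK pathway: DUSP6 and DUSP4, SPRY1, SPRY2 and SPRY4, SPRED1 and SPRED2, ETV4 and ETV5, and IL17RD. They were chosen by name among the 19720 gene symbols that the RefSeq accessions of the array probes gave, and each is followed here across 27 cultures of human pluripotent stem cells that differ in FGF dose and in medium. RNA was measured with one-color Agilent arrays, 2 arrays per culture, whose mean stood for the culture. The unit used throughout is the normalized signal, the log2 of the background-subtracted spot signal minus the 75th percentile of that array, so that 0 is the level of a probe at this percentile and a step of 1 is a 2-fold change. Signals of different probes are not compared with each other, because their brightness depends on the probe.

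The cultures fall into 5 systems and 1 differentiated culture. Human ESC line H1 was grown without feeder cells on Matrigel in E8 Medium (Essential 6 Medium with 2 ng/ml TGF-beta 1 and FGF) in 3 numbered experiments, each with a pre-culture in 100 ng/ml bFGF and cultures kept for 4 days with 100 ng/ml bFGF, with 100 ng/ml FGFC or with no FGF. The experiment number comes from the sample titles. In experiment 2 the passage given for the pre-culture is well before that of its arms, and in experiment 3 the passages given in different labels of the arms disagree, so that the number may not mark 1 continuous culture. FGFC is a recombinant chimera of FGF1 and FGF2, and bFGF is FGF2. H1 in E8 Medium was also kept for 30 days with 100 ng/ml of bFGF or of FGFC, and the human iPSC line 253G1 was a pre-culture or was kept for 36 days with either factor at the same dose in E8 Medium. The other 3 systems depended on mitomycin C-treated mouse embryonic fibroblasts (MEFs). H1 was grown feeder-free in medium conditioned by these cells (MEF-CM) with 5 ng/ml FGF for 41 days, ESC line KhES-1 directly on them with 5 ng/ml for 30 days, and iPSC line 201B7 directly on them with 10 ng/ml for 50 days, each as a pre-culture with bFGF, a bFGF culture and an FGFC culture. The single differentiated H1 culture came from embryoid bodies in medium without added FGF. Among the undifferentiated cultures, doses of 0 and 100 ng/ml therefore occur only in E8 Medium, and doses of 5 and 10 ng/ml only with MEFs or their conditioned medium, and no array slide holds both kinds of culture. Dose, medium and slide cannot be told apart between these 2 sets, and on the feeders the cell line cannot be told apart either. Each long-term arm is 1 culture of 1 line, and the cultures of a system derive from each other, so that p-values measure the spread between such cultures.

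In this pathway FGF binding to its receptors activates RAS, RAF, MEK and finally the kinases ERK1 and ERK2. ERK activity induces genes that act back on the pathway. DUSP6 is a cytoplasmic phosphatase that removes the activating phosphates from ERK, and DUSP4 is a related nuclear phosphatase that acts on ERK and other MAP kinases. The Sprouty proteins (SPRY1, SPRY2, SPRY4) and the Spred proteins (SPRED1, SPRED2) inhibit signaling between the receptor and RAF, and IL17RD, also called Sef, is a transmembrane inhibitor of FGF signaling. ETV4 and ETV5 are ETS transcription factors of the PEA3 group, which are induced by FGF signals and carry them to further genes. Human ESCs are cultured with FGF because it helps to keep them undifferentiated.

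DUSP6 and SPRY4, which had the largest falls without FGF among the 10 genes, are shown with the 250 bases before their transcription start, from RefSeq on GRCh38.p14, 5′ to 3′ on the strand of the gene. Windows were available for 7 of the 10 genes, 12 windows in all. Both strands were searched for the ETS core CCGGAA, the PEA3-type motif AGGAAG and the AP-1 motif TGANTCA, whose matches may share bases, and capitals mark a match to CCGGAA or AGGAAG. The DUSP6 window is chr12:89352502-89352751 on the minus strand, and the SPRY4 window is chr5:142324248-142324497 on the minus strand.
DUSP6: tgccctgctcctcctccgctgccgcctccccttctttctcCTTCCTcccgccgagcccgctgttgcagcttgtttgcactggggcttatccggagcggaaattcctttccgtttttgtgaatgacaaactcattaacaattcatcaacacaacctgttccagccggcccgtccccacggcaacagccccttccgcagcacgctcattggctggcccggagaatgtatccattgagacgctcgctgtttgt
SPRY4: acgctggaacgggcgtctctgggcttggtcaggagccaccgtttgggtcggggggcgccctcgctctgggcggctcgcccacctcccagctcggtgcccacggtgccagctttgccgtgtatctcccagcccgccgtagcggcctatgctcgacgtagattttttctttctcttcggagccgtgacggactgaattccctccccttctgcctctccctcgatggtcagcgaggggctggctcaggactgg
The DUSP6 window held 1 match to AGGAAG, on the opposite strand, and the SPRY4 window held no match to any of the 3 motifs. AGGAAG was found in 8 of the 12 windows, from 5 of the 7 genes, and in 28.7% of all 35116 windows of this length. CCGGAA was found in 2 of the 12 windows (of SPRY1 and SPRY2) and in 14.5% of all, and TGANTCA in 0 of the 12 and in 6.57% of all. These matches describe letters in a window only.

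All members were measured well above background in nearly every array. For 9 genes the probe had that mark on 54 of 54 arrays and for ETV5 on 53. Duplicate arrays of a culture differed by a median of 0.0877 and at most 0.854 in log2 over the 270 pairs of values. Over all arrays, 56.1% to 79.2% of the 42405 probes were well above background, most in H1 in MEF-CM (75.2% to 79.2%), and the 2 arrays of the 201B7 pre-culture had the lowest 75th percentiles of raw signal, 182 and 234 against a median of 670 over all arrays. The 6 pluripotency markers (POU5F1, NANOG, SOX2, LIN28A, DPPA4 and TDGF1) were well above background in every undifferentiated system.

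Among cultures with FGF the members differed in how widely they varied. DUSP6 spanned 4.25 on the log2 scale over the 23 undifferentiated cultures with FGF, ETV5 2.80, SPRY4 2.72 and ETV4 2.10. DUSP4 spanned 1.64, SPRED2 1.56, IL17RD and SPRED1 1.45 each, SPRY2 1.19 and SPRY1 1.11. The median span over the 28459 probes that were well above background on at least 27 of the arrays was 1.58. DUSP6, SPRY4, ETV4, ETV5, DUSP4, SPRY1, SPRY2 and IL17RD had their lowest mean among the 5 systems with FGF in one of the feeder systems, and SPRED1 and SPRED2 had their lowest mean in H1 in MEF-CM.

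**Figure D1:**
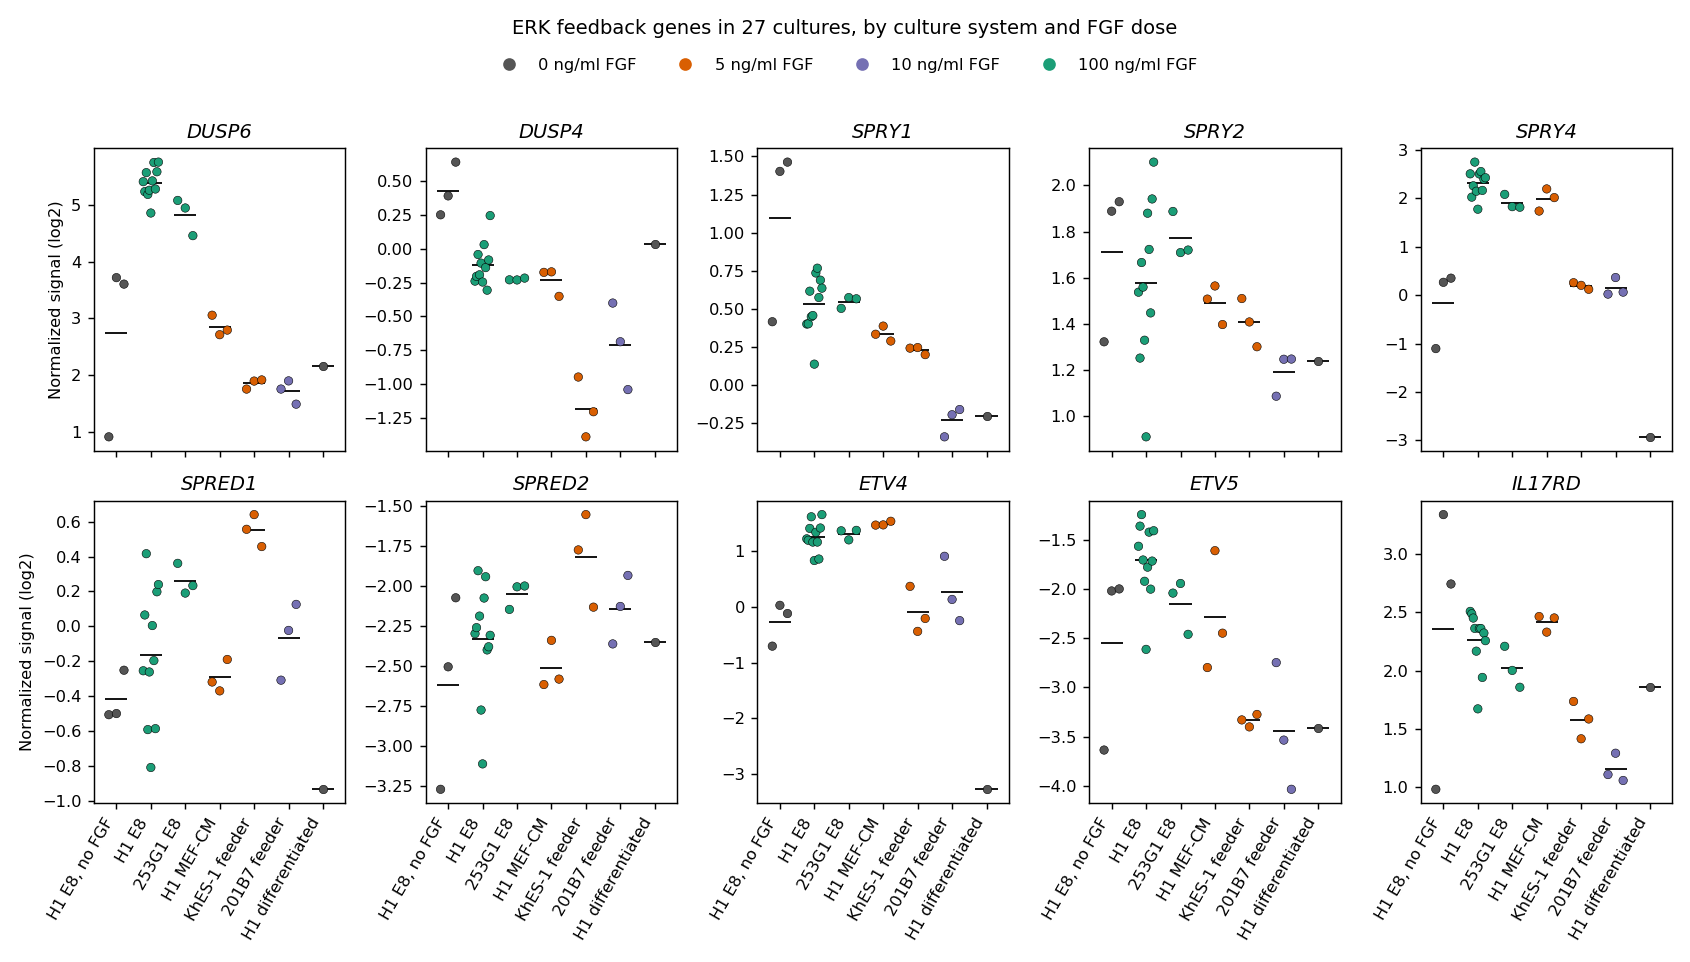
Normalized signal (log2, vertical axis, a separate scale for each gene) of the 10 genes in 27 cultures, grouped by culture system on the horizontal axis. Each point is 1 culture, its color gives the FGF dose and the bar is the group mean. DUSP6 sits between 4.45 and 5.74 in all E8 cultures with FGF and between 1.50 and 3.06 in all MEF-based cultures, while SPRY4 and ETV4 of H1 in MEF-CM sit at the level of the E8 cultures.

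Removal of FGF for 4 days lowered DUSP6, SPRY4 and ETV4 and raised DUSP4. Against bFGF, limma's moderated test across all probes called 4 of the 10 genes (adjusted p under 0.05), where 12.7% of all probes were called. Against FGFC the same 4 genes were called, where 10.8% of all probes were called. Both comparisons use the same 3 cultures without FGF.

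DUSP6 was 5.23, 5.25 and 5.74 in the bFGF cultures of experiments 1, 2 and 3 and 5.56, 4.85 and 5.27 in the FGFC cultures. Without FGF it was 0.92 in experiment 1, 3.72 in experiment 2 and 3.60 in experiment 3. All cultures without FGF lay below all cultures with FGF in E8 Medium, which also held for SPRY4 and ETV4 and for 4.92% of all probes. The culture of experiment 1 was far below the other 2 without FGF. The mean fell by 2.66 on the log2 scale against bFGF (6.31-fold, 95% interval 2.58 to 15.4, n = 3 and 3, adjusted p = 0.0122 by limma) and by 2.48 against FGFC (adjusted p = 0.0196 by limma). Within experiments the fall against bFGF was 19.7-fold, 2.90-fold and 4.39-fold.

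SPRY4 was 2.02, 2.14 and 2.55 in the bFGF arm, 2.26, 1.77 and 2.16 in the FGFC arm, and -1.10, 0.26 and 0.35 without FGF. The groups with and without FGF did not overlap, and experiment 1 was again the lowest. SPRY4 fell by 2.40 against bFGF (5.29-fold, 95% interval 3.15 to 8.88, adjusted p = 0.000839 by limma) and by 2.23 against FGFC (adjusted p = 0.00157 by limma). A second, much dimmer SPRY4 probe changed by -0.43 ± 0.22 (SE) against bFGF and did not pass the test (adjusted p = 0.257 by limma), so the size rests on the brighter probe.

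ETV4 was 1.19, 1.16 and 1.16 in the bFGF arm, 1.41, 0.83 and 0.86 in the FGFC arm, and -0.71, 0.03 and -0.12 without FGF. It fell by 1.44 against bFGF (2.71-fold, 95% interval 1.92 to 3.84, adjusted p = 0.00172 by limma) and by 1.30 against FGFC (adjusted p = 0.00373 by limma). Its partner ETV5 did not pass the test. ETV5 was -3.64 without FGF in experiment 1, but -2.02 in experiment 2 and nearly the same in experiment 3, inside the range of the FGFC cultures (-2.61 to -1.24), and its mean difference from bFGF was -0.99 ± 0.44 (SE, adjusted p = 0.189 by limma).

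DUSP4 moved the opposite way to DUSP6. In experiments 1, 2 and 3 it was -0.20, -0.11 and -0.14 in the bFGF arm and -0.04, -0.25 and -0.31 in the FGFC arm, while the arm without FGF had 0.25, 0.39 and 0.64. The 3 cultures without FGF were above all 6 others. They were also above every culture with FGF in E8 Medium, which held for 4.76% of all probes. The rise was 0.58 against bFGF (1.49-fold, 95% interval 1.17 to 1.91, adjusted p = 0.0378 by limma) and 0.63 against FGFC (adjusted p = 0.0294 by limma).

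The other members did not pass the test. SPRY1 was 0.42, 1.40 and 1.46 without FGF against 0.40, 0.46 and 0.77 with bFGF (adjusted p = 0.240 by limma), so that experiments 2 and 3 were above every culture with FGF and experiment 1 was not. Among the members not called, IL17RD showed the widest spread without FGF. It was 0.98 in experiment 1, 3.34 in experiment 2 and 2.74 in experiment 3, against 2.17 to 2.49 with bFGF, and its mean difference was 0.02 ± 0.47 (SE, adjusted p = 0.989 by limma). SPRY2 differed by 0.28 ± 0.25, SPRED1 by -0.29 ± 0.29 and SPRED2 by -0.29 ± 0.36 (SE) from bFGF. Experiment 1 stood apart from experiments 2 and 3 in several of these genes. The differences from bFGF were -1.01 for SPRED2, -2.28 for ETV5 and -1.51 for IL17RD in experiment 1, 0.27, -0.10 and 1.17 in experiment 2, and -0.13, -0.58 and 0.38 in experiment 3. The median difference over the 10 genes was -1.26 in experiment 1, 0.09 in experiment 2 and -0.09 in experiment 3. That of all probes was 0.01 in the fit over the experiments together, and it was not computed within each experiment.

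The calls of the 4-day comparison depended on single experiments. Without experiment 3 SPRY4 alone was called against bFGF, without experiment 2 SPRY4 and ETV4, and without experiment 1 DUSP6, SPRY4 and ETV4. Against FGFC the calls without experiment 3 and without experiment 2 were the same, and without experiment 1 SPRY1 (1.08 higher, adjusted p = 0.0379 by limma) and IL17RD (1.24 higher, adjusted p = 0.0297 by limma) were called besides DUSP6, SPRY4 and ETV4. SPRY4 was called under all 13 alternatives tried in both comparisons (adjusted p at most 0.0339 against bFGF and 0.0447 against FGFC by limma). In experiment 1 and in experiment 3 the 3 arms shared 1 slide, so that the differences within these experiments are also within a slide, while in experiment 2 the bFGF arm was on another slide than the FGFC arm and the arm without FGF. With the slide as a fixed block SPRY4 alone was called against bFGF and SPRY4 and ETV4 against FGFC.

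**Figure D2:**
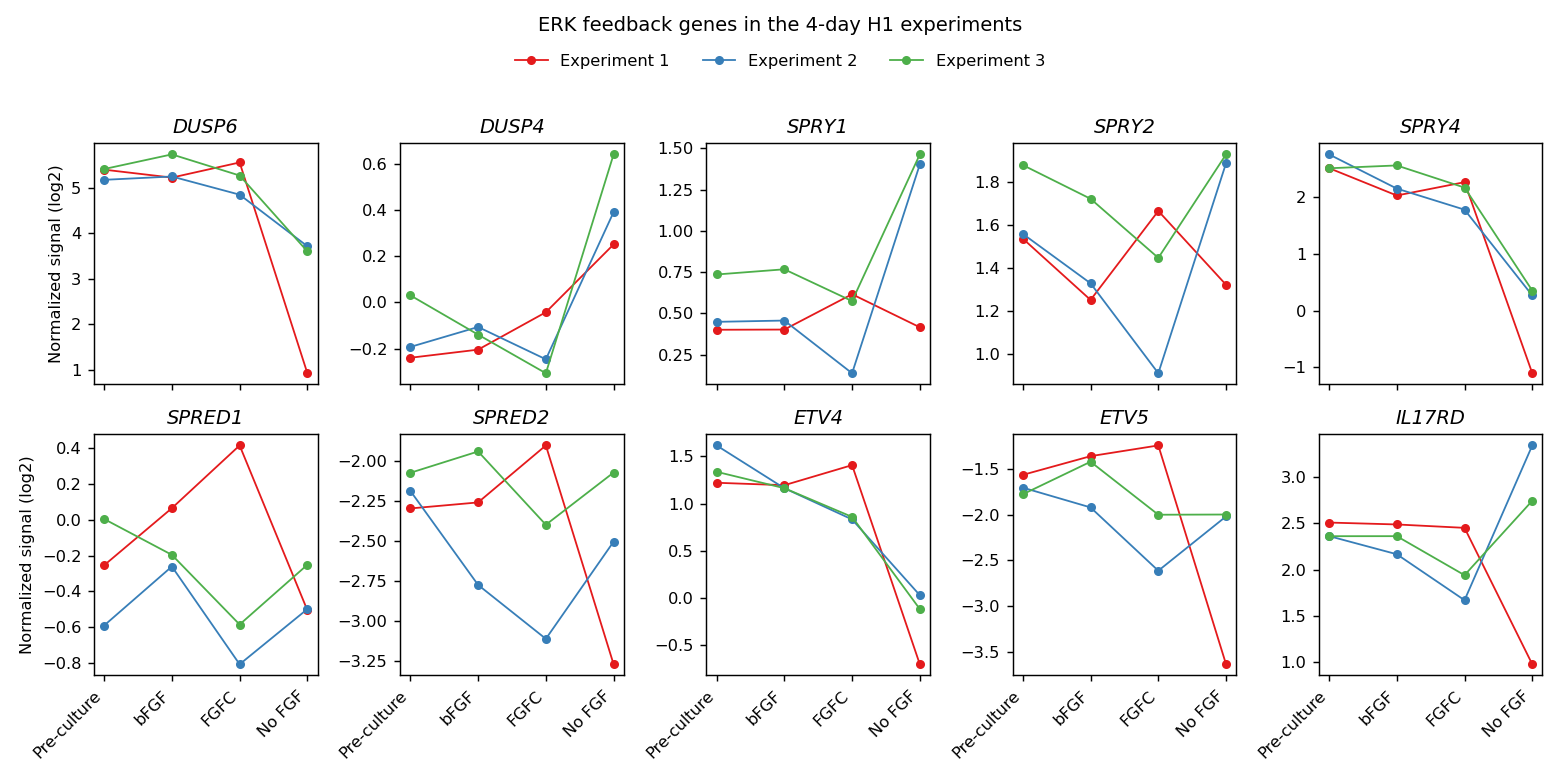
Normalized signal (log2, vertical axis, a separate scale for each gene) of the 10 genes in the pre-culture and the 3 arms of the 4-day H1 experiments in E8 Medium. Each point is 1 culture, and lines join the cultures with the same experiment number and do not mark a time course. DUSP6, SPRY4 and ETV4 are lower without FGF in all 3 experiments, and DUSP4 is higher, while IL17RD is lower in experiment 1 (0.98) and higher in experiments 2 and 3 (3.34 and 2.74).

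Markers of other cell types moved in the same cultures. Without FGF, 3 of 5 neural markers were higher than with bFGF, and SOX1 and NEUROG2 were not well above background on any of these arrays. With bFGF, PAX6, SOX1, NEUROG2 and ZIC1 were not well above background on any array. The summed level of the 5, in which the brightest probes weigh most, was 2.16 to 2.45 (log2) without FGF against -1.50 to -0.82. Of 7 markers of extraembryonic or surface ectoderm 2 were higher, with summed levels of 2.65 to 3.18 against 2.59 to 2.96. Of 6 pluripotency markers 3 were lower and 1 higher, and their summed level was 7.60 to 8.14 against 8.42 to 8.72. Of 9 fibroblast markers 2 were lower, with summed levels of 4.24 to 4.68 against 5.58 to 5.80 and LUM, DCN and POSTN not well above background on these arrays, and of 7 mesoderm and endoderm markers 1 was lower, with -0.76 to 0.16 against -0.51 to -0.10 and MIXL1, EOMES, GSC, SOX17 and FOXA2 not well above background on any array without FGF. With bFGF, GATA3, TFAP2A, KRT14, COL3A1, LUM, DCN, EOMES and SOX17 were not well above background on any array either. The part of the marker shifts in the differences of the feedback genes was not tested. In these RNA samples fewer cells that express a gene and less RNA per cell cannot be told apart.

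Genes next to the members in the pathway were counted in the same comparison with bFGF, in which 12.7% of all probes were called. Of 11 relatives of the members measured, 4 fell, DUSP5 by 1.90, DUSP16 by 1.57, SPRY3 by 1.02 and ETV6 by 0.90 on the log2 scale, and none rose. DUSP5 is a nuclear phosphatase of ERK, DUSP16 acts mainly on JNK and p38, and ETV6 is an ETS repressor outside the PEA3 group. The median difference of the 11 was -0.25. Of 25 FGF receptors and components of the ERK cascade, 4 rose and 2 fell, with a median of 0.24. The rises were FGFR3 (2.43), the receptor adapter FRS2 (1.06), HRAS (0.86) and FGFR2 (0.77), and the falls were MAP2K1, which encodes MEK1, by 0.76 and the adapter SHC1 by 0.70. Of 17 other targets of ERK signaling, 3 rose and 4 fell, with a median of -0.31. IER3 fell by 2.09, MYC by 2.02, PHLDA1 by 1.39 and LIF by 0.77, whereas EPHA4 rose by 4.52, EGR1 by 1.57 and FLRT3, which was not well above background with bFGF, at least 49.6-fold.

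Across doses, the 100 ng/ml cultures were the high end for DUSP6, but the order of the lower doses did not follow the dose. DUSP6 had a mean of 2.75 ± 1.58 (SD, n = 3) at 0 ng/ml, 2.36 ± 0.56 (n = 6) at 5 ng/ml, 1.72 ± 0.21 (n = 3) at 10 ng/ml and 5.26 ± 0.36 (n = 14) at 100 ng/ml. The 9 cultures at 5 and 10 ng/ml lay between 1.50 and 3.06, below 2 of the 3 cultures without FGF. In a fit over 26 undifferentiated cultures with the culture system as a random block, DUSP6 was 6.81-fold lower at 5 than at 100 ng/ml (95% interval 2.84 to 16.3, adjusted p = 0.0267 by limma) and 10.6-fold lower at 10 than at 100 ng/ml (95% interval 3.60 to 31.2, adjusted p = 0.0202 by limma). It was the single member called in both comparisons, where 0.797% and 1.01% of all probes were called. The call at 5 ng/ml was lost without the 201B7 system, and that at 10 ng/ml without the H1 E8 system or without the 201B7 pre-culture, whose 2 arrays were the dimmest. Both calls were also lost with the mean of each system and dose as 1 unit, and when the fit was limited to probes well above background.

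Between 100 and 0 ng/ml 5 members were called, where 17.9% of all probes were called. This comparison shares its 3 cultures without FGF with the 4-day comparisons and adds the pre-cultures and long-term cultures in E8 Medium. DUSP6 was 2.62 higher at 100 ng/ml (adjusted p = 1.59e-06 by limma), SPRY4 2.47 (adjusted p = 3.25e-08 by limma) and ETV4 1.53 (adjusted p = 1.79e-05 by limma). The dimmer SPRY4 probe was 0.37 higher and did not pass the test (adjusted p = 0.268 by limma). DUSP4 was 0.55 lower (adjusted p = 0.00812 by limma) and SPRY1 0.56 lower (adjusted p = 0.00936 by limma). With the mean of each system and dose as 1 unit, where 0 ng/ml is a single value, none was called.

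At 5 ng/ml against 0 ng/ml DUSP4 alone was called, 1.09 lower (adjusted p = 0.0191 by limma, 13.7% of all probes called), and it was not called without the KhES-1 system. DUSP4 was -0.95 to -1.39 on the KhES-1 feeders and -0.17 to -0.35 in H1 in MEF-CM, which have the same dose. At 10 ng/ml against 0 ng/ml SPRY1 alone was called, 1.33 lower (adjusted p = 0.0419 by limma, 3.22% of all probes called), and it was not called without the 253G1 system or the 201B7 pre-culture. Between 10 and 5 ng/ml no member was called by limma, 0 had an unadjusted p under 0.05, and 0.707% of all probes were called. In the lower doses all probes together were shifted, by a median of -0.21 for 5 and -0.20 for 10 against 0 ng/ml and of -0.18 for both against 100 ng/ml, so that a difference of this size is the level of an average probe.

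Cultures at 5 ng/ml differed by system. SPRY4 was 1.74, 2.19 and 2.01 in the pre-culture, the bFGF culture and the FGFC culture of H1 in MEF-CM, and 0.26, 0.20 and 0.12 in those of KhES-1 on feeders. ETV4 was 1.47, 1.47 and 1.54 in H1 in MEF-CM and 0.37, -0.44 and -0.21 in KhES-1 on feeders. IL17RD was 2.33 to 2.46 in the first and 1.41 to 1.73 in the second. The systems, which had the same dose but differ in line and in contact with feeders, did not overlap in these 3 genes. KhES-1 was also lower without overlap in DUSP6, DUSP4, SPRY1 and ETV5. It was higher without overlap in SPRED1 and SPRED2, and SPRY2 overlapped. The share of all probes without overlap between these systems was not counted, so that this separation does not set the members apart from other genes. The 201B7 cultures on feeders, at 10 ng/ml, resembled KhES-1 with 0.02, 0.36 and 0.06 for SPRY4 and 0.91, 0.13 and -0.25 for ETV4. All 6 feeder cultures were below all 3 cultures of H1 in MEF-CM in 6 of the 10 genes (DUSP6, DUSP4, SPRY1, SPRY4, ETV4 and IL17RD), as 14.5% of all probes were.

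The medium contrast gave the widest separation for DUSP6. Its 14 values in E8 Medium with FGF ran from 4.45 to 5.74 (median 5.26) and its 9 values in MEF-based culture from 1.50 to 3.06 (median 1.90), a difference of means of 8.67-fold. By system, the means were 5.38 ± 0.27 (SD, n = 11) for H1 and 4.82 ± 0.33 (n = 3) for 253G1 in E8 Medium, 2.86 ± 0.18 (n = 3) for H1 in MEF-CM, 1.86 ± 0.09 (n = 3) for KhES-1 and 1.72 ± 0.21 (n = 3) for 201B7 on feeders. H1 and 253G1 in E8 Medium overlapped, as did the 2 feeder systems, and H1 in MEF-CM was separate from both pairs. DUSP6 was the single member for which every MEF-based culture was below every E8 culture with FGF, which held for 1.4% of all probes. This gap between the lowest E8 and the highest MEF-based culture was 1.40 in log2, and 1.18 to 1.42 when the values were made in the other ways tried.

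For the feeder cultures alone, 4 members lay below every E8 culture with FGF, as 3.37% of all probes did. The difference of means was 11.1-fold for DUSP6, 4.16-fold for SPRY4, 3.01-fold for ETV5 and 1.75-fold for DUSP4. The dimmer SPRY4 probe had means of -3.41 on feeders and -2.56 in E8 Medium with FGF. Its mean was -3.18 for 253G1 in E8 Medium and -3.06 for 201B7 on feeders. The separation of SPRY4 therefore rests on the brighter probe. ETV5 was -4.04 to -2.75 on feeders and -2.61 to -1.24 in E8 Medium with FGF. SPRED1, SPRED2, SPRY1, SPRY2, ETV4 and IL17RD overlapped between feeder and E8 cultures.

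When each system counted as 1 value, 3 MEF-based against 2 E8 systems, no member passed limma's test and 0% of all probes did, although 3 members and 7780 probes had an unadjusted p under 0.05. The difference for DUSP6 was -2.96 (7.76-fold lower, 95% interval 3.79 to 15.9, adjusted p = 0.242 by limma), for SPRY4 -1.34 (adjusted p = 0.270 by limma) and for ETV5 -1.10 (adjusted p = 0.247 by limma). With the 23 cultures and the system as a random block DUSP6 was called (adjusted p = 2.14e-05 by limma) and no other member was. The median difference of all probes was -0.15.

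H1 is the single line grown in both kinds of medium, and there DUSP6 was the single member called. DUSP6 was 3.06 in the pre-culture, 2.72 in the bFGF culture and 2.80 in the FGFC culture in MEF-CM, against 4.85 to 5.74 (median 5.40) in the 11 H1 cultures with FGF in E8 Medium. It was lower in MEF-CM by 2.53 (5.76-fold, 95% interval 3.27 to 10.2, adjusted p = 0.000125 by limma) and was called under all 12 alternatives. SPRY4 differed by -0.34 (95% interval -0.86 to 0.19, adjusted p = 0.317 by limma) and ETV4 by 0.23 (95% interval -0.14 to 0.61, adjusted p = 0.339 by limma), so that falls of the size seen without FGF lay outside both intervals. The other 7 members differed by -0.58 (ETV5) to 0.15 (IL17RD) and did not pass the test. For ETV5 the 95% interval of -1.27 to 0.10 included its difference of -0.99 without FGF against bFGF, so a fall of that size was not excluded. In all 1 of 10 members was called, while 36.6% of all probes were called, more of them lower (11359) than higher (4152; with quantile normalization 4862 and 4760), and the median difference of all probes was -0.15.

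The unequal change of DUSP6 and SPRY4 was itself tested, after their values had been seen. The log2 difference between DUSP6 and SPRY4 was lower in MEF-CM than in E8 Medium by 2.19 (n = 3 and 11, exact two-sided permutation test over 364 arrangements, p = 0.00549), and that between DUSP6 and ETV4 by 2.76 (exact permutation p = 0.00549). This is the smallest p the design allows, the 3 MEF-CM cultures are 1 lineage on slides of their own, and the choice of genes after seeing their values makes the p a description. The cultures without FGF differ from this pattern, since DUSP6, SPRY4 and ETV4 were all lower there.

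**Figure D3:**
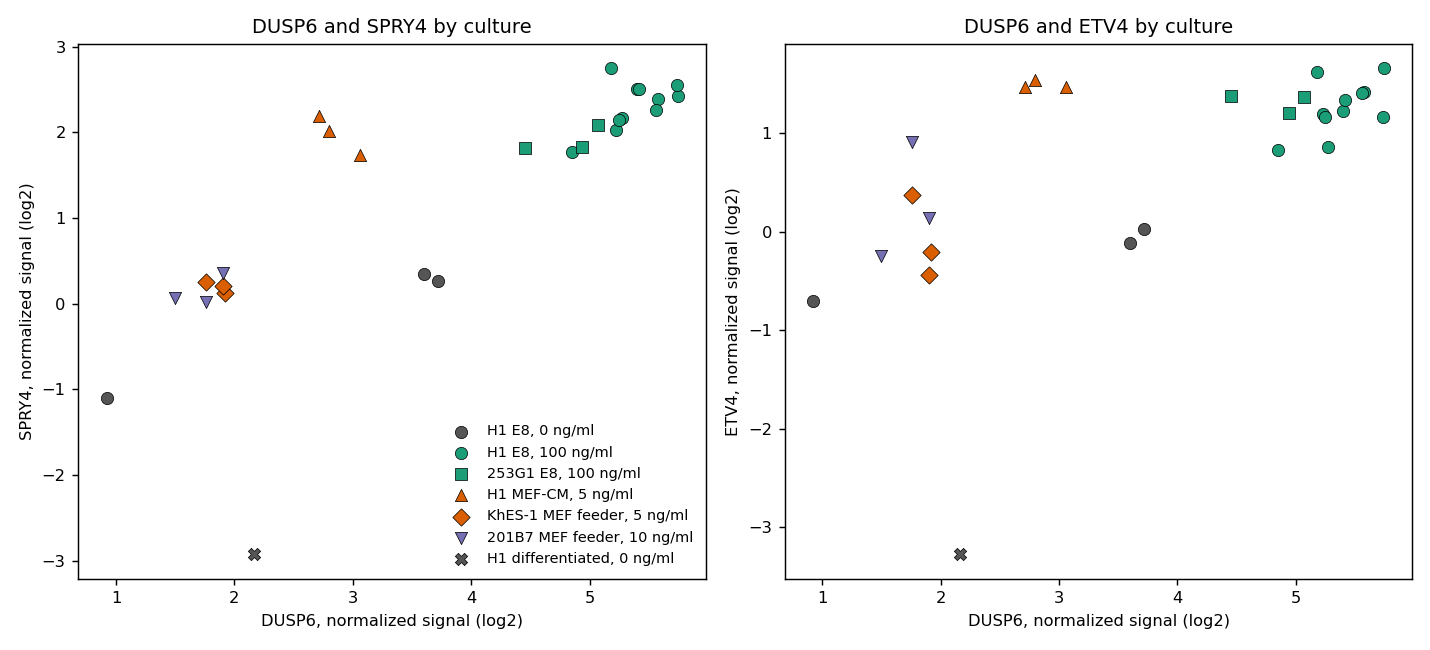
Normalized signal (log2) of DUSP6 on the horizontal axis against SPRY4 (left) and ETV4 (right) on the vertical axis, 1 point for each of 27 cultures, with the shape giving the system and the color the FGF dose. H1 in MEF-CM (triangles, DUSP6 2.72 to 3.06) has SPRY4 of 1.74 to 2.19 and ETV4 of 1.47 to 1.54, at the height of the E8 cultures with FGF, while the feeder cultures and those without FGF have SPRY4 of at most 0.36 and ETV4 of at most 0.91, the 201B7 pre-culture, which overlaps the E8 cultures.

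Related genes and markers were read in the same H1 comparison. Of 11 relatives 1 was higher and 3 were lower in MEF-CM, of 25 receptors and cascade components 5 were higher and 7 lower, and of 17 other ERK targets 5 were higher and 3 lower, with medians of -0.38, 0.15 and 0.10. These counts stand beside the 36.6% of all probes called in this comparison and the median of -0.15 over all probes. IER3, an ERK-induced regulator of cell survival that fell without FGF, was 1.62 higher in MEF-CM (adjusted p = 0.000133 by limma), and FGFR3 was 1.59 higher (adjusted p = 0.000419 by limma). These 2 genes were chosen after their values had been seen. Of the other genes on these lists that fell without FGF, LIF was also higher in MEF-CM, by 0.68. DUSP5, SPRY3 and MAP2K1 were lower there, by 0.63, 0.89 and 0.61, and DUSP16, ETV6, SHC1, MYC and PHLDA1 were not called. Of 9 fibroblast markers 3 were higher and 2 lower in MEF-CM, with summed levels of 5.99 to 6.09 against 5.43 to 6.04 in H1 in E8 Medium, and COL3A1, LUM and DCN were not well above background on any MEF-CM array. On the 201B7 feeders the summed fibroblast level was 6.23 to 7.99, and on the KhES-1 feeders 5.29 to 5.45, and COL3A1, COL6A3 and LUM were not well above background on any array of either system. The part of RNA from the mouse feeder cells in the feeder cultures was not tested. Of 7 mesoderm and endoderm markers 2 were higher and 2 lower in H1 in MEF-CM than in H1 in E8 Medium, with a median difference of -0.06. Their summed level, in which the brightest probes weigh most, was 3.09 to 4.15 against -0.69 to 1.02. These ranges did not overlap, and 7.19% of all single probes lay above without overlap in this comparison. Over all MEF-based cultures the summed level was 1.01 to 4.15, against -0.69 to 2.47 in all E8 cultures with FGF. The part of these markers in the differences of the feedback genes was not tested. Pluripotency markers had summed levels of 8.55 to 8.67 in H1 in MEF-CM and 8.30 to 9.03 in H1 in E8 Medium.

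FGFC and bFGF gave no called difference in any member. After 4 days limma called 0 of 10 genes and 0% of all probes, and no member had an unadjusted p under 0.05, while 1262 probes had. The differences of the means ran from -0.39 for ETV5 (95% interval -1.35 to 0.58) to -0.05 for DUSP4 (-0.40 to 0.31), and that of DUSP6 was -0.18 (-1.47 to 1.11) and that of SPRY4 -0.18 (-0.92 to 0.57). The experiments went different ways. FGFC was below bFGF in all 10 genes in experiments 2 and 3, with median differences of -0.39 in both, and above it in 9 of 10 genes in experiment 1, with a median of 0.22. The directions of all probes within each experiment were not counted, so that these counts do not set the members apart from other genes.

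Over 30 to 50 days in the 5 systems, again 0 members and 0% of all probes were called, and 0 members and 2537 probes had an unadjusted p under 0.05. In each system FGFC minus bFGF was under 1 in log2 for every gene, and the widest of these 50 differences was -0.84 for ETV5 in H1 in MEF-CM. DUSP6 differed by 0.17 in H1 and -0.49 in 253G1 in E8 Medium, by 0.08 in H1 in MEF-CM, by 0.02 in KhES-1 and by -0.41 in 201B7, and its mean difference was -0.12 (95% interval -0.44 to 0.19). SPRY4 differed by 0.03, -0.01, -0.18, -0.08 and -0.30 in the same order, with a mean of -0.11 (95% interval -0.33 to 0.11). For SPRY1 the interval was -0.23 to 0.16. ETV5 had the widest interval (-0.74 to 0.17), and none of the intervals of the other 9 genes reached further from 0 than the lower bound of DUSP6, -0.44.

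**Figure D4:**
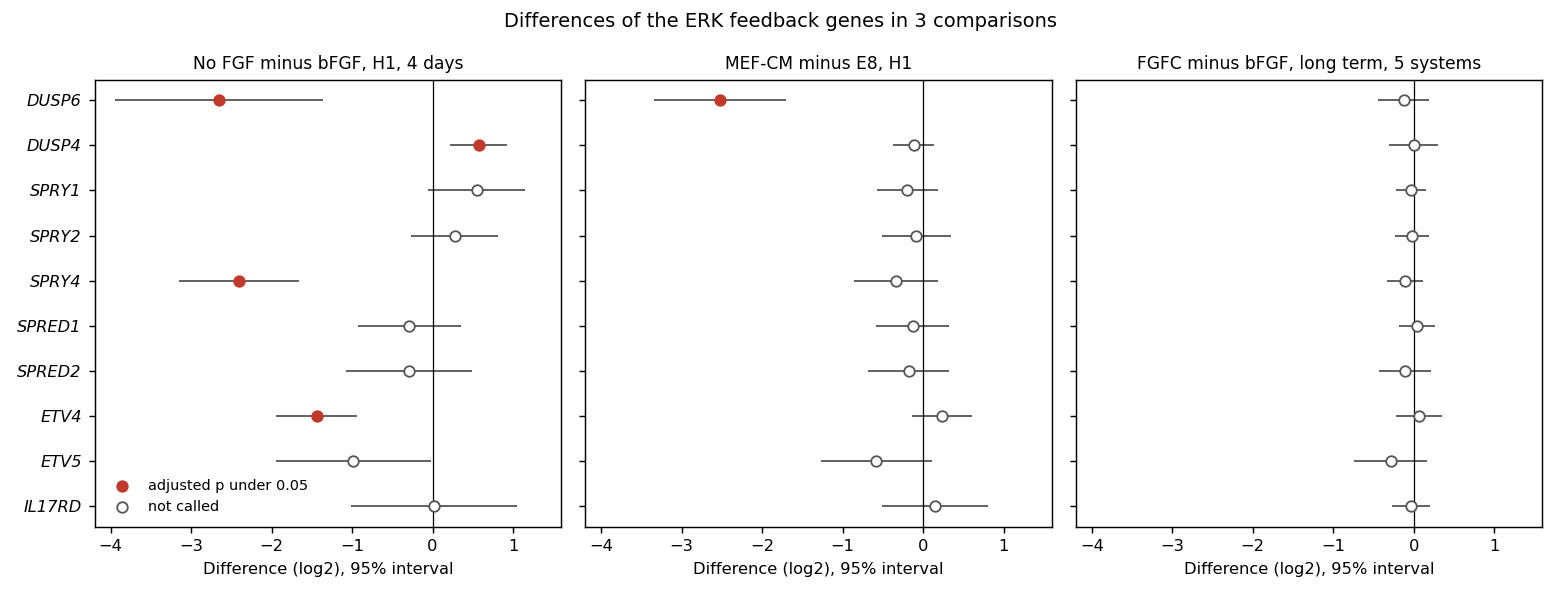
Log2 differences (horizontal axis) of the 10 genes with their 95% intervals from limma for no FGF against bFGF after 4 days (left), H1 in MEF-CM against H1 in E8 Medium with FGF (middle) and FGFC against bFGF in long-term culture (right). Filled red points passed the test at an adjusted p under 0.05. DUSP6, SPRY4 and ETV4 lie left of 0 and DUSP4 right of it in the first panel, DUSP6 alone passes in the second, and no gene passes in the third.

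The single differentiated H1 culture was low in part of the set. SPRY4 was -2.92 and ETV4 -3.27, below all 26 undifferentiated cultures, whose lowest values were -1.10 and -0.71, and SPRED1 was -0.93, just below the lowest undifferentiated value of -0.81. DUSP6, at 2.16, was within the range of the MEF-based cultures, and DUSP4, SPRY1, SPRY2, SPRED2, ETV5 and IL17RD were within the range of the undifferentiated cultures. There is 1 such culture and no test, and the share of all probes outside the range of the undifferentiated cultures was not counted.

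Across the 26 undifferentiated cultures DUSP6 and SPRY4 went together (Pearson r = 0.87), as did DUSP6 and ETV5 (0.87), SPRY4 and ETV4 (0.90) and SPRED1 and SPRED2 (0.72), whereas DUSP6 and SPRED1 did not (-0.09). Cultures share systems, lines and slides, so that these values are descriptions. Among 19468 probes with a symbol that were well above background on at least 27 arrays, the genes whose pattern was most like that of DUSP6 were IGDCC3 (r = 0.97), D21S2088E (0.94), SFRP2, a secreted modulator of WNT signaling (0.93), SLC7A1, a transporter of cationic amino acids (0.92), and PIEZO2, a mechanosensitive ion channel (0.92). IGDCC3 had a mean of 4.89 in E8 Medium with FGF, 3.42 in MEF-based culture and 3.75 without FGF. Those most like SPRY4 were the membrane protein gene CD200 (0.96), LRRFIP1 (0.93), AK4, a mitochondrial adenylate kinase (0.92), RELL2 (0.92) and the homeobox gene EMX1 (0.91). CD200 had means of -0.09, -0.63 and -1.16 in the same order. ETV4 was the tenth of all probes most like SPRY4, and neither list of 5 holds another member.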

How the data were processed

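The deposited scanner files hold one-color intensity per spot, which the authors produced with Agilent Feature Extraction 10.7.3.1, with the processed signal already background-subtracted. The deposited flag and score columns mark outlier spots and spots well above background. Outlier spots were left out, spots of a probe averaged, signals under 1 set to 1, and log2 values centered on the 75th percentile of each array. RefSeq accessions named 25715 of 42405 probes. Each of the 10 members had 1 probe except SPRY4 with 2, of which the brighter was used. Genes of the pathway lists with several probes were read from the probe with the highest mean signal. Among these were FGFR3, FGFR2, SHC1, IER3, LIF, SPRY3 and ETV6, whose other probes are not given here. Tests were made with limma 3.58.1 in R 4.3.3 on the mean of both arrays of a culture, with Benjamini-Hochberg adjustment over all probes and a threshold of 0.05. They covered the 4-day arms (12 cultures), the doses (26 cultures, system as a random block, correlation 0.53), system means (3 against 2), H1 in both media, and long-term FGFC against bFGF with the system as a block. The differentiated culture entered no fit. Values and figures were made in Python 3.11.15. The fits were tested on simulated data. Deviations of 4-day cultures with the same experiment number, taken from the labels as a shared experiment, correlated at 0.08 to 0.32 over 9 pairs. Alternatives covered background correction, normalization, floors, single arrays, blocks and left-out cultures or systems. Named genes were the 10 members, the called genes of the pathway lists and the 5 probes most like DUSP6 and SPRY4. Members and lists were chosen with earlier results of these data known. The number of independent cultures limits the precision.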

Additional observations from a re-analysis of the deposited data

Results flagged for a closer look

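For each gene, the 6 cultures at 5 ng/ml and the FGFC minus bFGF differences of the 5 systems were searched for a single value far from the others. Of these 20 sets 1 held such a value, and chance alone would give about 1 in 20. The cultures at 5 ng/ml pool H1 in MEF-CM and KhES-1 on feeders. The difference FGFC minus bFGF of ETV4 in long-term culture was -0.38 in 201B7 on MEF feeders and 0.06 to 0.24 in the other 4 systems. The gap to the nearest of these was 0.716 of the whole range of the 5 systems, just over the critical value of 0.710. The 201B7 value rests on 1 culture of each kind, with ETV4 at 0.13 with bFGF and -0.25 with FGFC.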

How the results depend on the processing

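No difference that was called, as reported or under the alternative, changed sign, while 61 differences called in neither did. Of the counts of called members under an alternative 126 were within 1.5 times the count reported and 50 were not. Against no FGF, the 4 members called with bFGF became 1 with the slide as a fixed block and 1 to 3 without an experiment, and the 4 called with FGFC became 2 with the slide block, 2 with the 2 arms alone and 1 to 5 without an experiment. With the replicate block, in which cultures of an experiment are paired, the counts were 4, 4 and 0. With the mean of each system and dose as 1 unit, 0 were called at every dose contrast, also for 100 against 0 ng/ml (5 otherwise). For 5 against 0 ng/ml, 1 became 3 with normexp, the floor, the first array or the slide as a random block, 4 without the system block, and 2 without KhES-1 or without the no FGF culture of experiment 1. For 10 against 0 ng/ml, 1 became 2 with normexp, quantile normalization, the slide block, or without H1 MEF-CM or KhES-1, 3 without the system block or the no FGF culture of experiment 1, and 0 with the second array, with probes well above background alone, without 253G1 or without the 201B7 pre-culture. For 5 against 100 ng/ml, 1 became 4 without the system block, with the slide block or without H1 MEF-CM, and 0 with probes well above background alone or without 201B7. For 10 against 100 ng/ml, 1 became 7 without the system block, 4 with the slide block, 2 with normexp, quantile normalization, or without H1 MEF-CM, KhES-1 or the no FGF culture of experiment 1, and 0 with probes well above background alone, without H1 E8 or without the 201B7 pre-culture. For 10 against 5 ng/ml, 0 became 1 without KhES-1. For MEF-based against E8 systems, 0 became 2 with normexp, 1 with the floor or with 23 cultures and the system block, and 7 with 23 cultures and the slide block. The causes were not tested. The alternatives without the 201B7 pre-culture and without the no FGF culture of experiment 1 were chosen after seeing the data. Counts over all probes moved too, from 5400 to between 1272 and 3557 without an experiment (no FGF against bFGF), from 338 to 18278 without the system block (5 against 100 ng/ml), from 0 to 13801 with the slide block (MEF-based against E8 systems), and from 15511 to between 9622 and 21261 (H1 in MEF-CM against E8).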
